A study of Mus musculus with 22 samples.

Results

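Pcf11 encodes a subunit of cleavage factor II, which takes part in the cleavage of nascent RNA at its 3′ end before poly(A) is added. The protein also binds the tail of RNA polymerase II and helps transcription to stop. Pcf11 can also end its own transcript early: a poly(A) site near the start of the gene gives a short RNA that lacks most of the coding exons, while sites in the last exon end the full-length messenger RNA. The balance between the early and the late ends therefore bears on how much full-length Pcf11 RNA a cell makes.

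The Pcf11 locus was taken as the minus strand of mouse chromosome 7 (mm9) at chr7:99786000-99819000, a window of 33 kb with the promoter at its high end. In 20 libraries made with 3′READS, an assay that reads the position of the poly(A) tail, 43 of 612268 listed positions fell in this window, with 3780 reads in all. Positions in the third of the window nearest the promoter (99808000 and above) were called early, and those in the third farthest from it (99797000 and below) last-exon. The names intronic and last-exon come from the position in the window, as no mm9 annotation was used. Another 33 positions with 144 reads lay on the opposite strand in the same window, and were left out because the assay keeps strand.

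The 10 groups of 3′READS libraries held 2 libraries each. C2C12 myoblasts labelled siPcf11 were set against untreated C2C12 cells, both in total RNA and in newly made RNA, marked by the nucleoside 4-thiouridine (4sU; 50 µM, 1 h before harvest). NIH3T3 fibroblasts labelled siPcf11 were set against untreated NIH3T3 cells. 4T1 mammary carcinoma cells of the genotype Pcf11-IPAKO were set against untreated 4T1 cells. Differentiated C2C12 cells were set against proliferating C2C12 cells, both labelled untreated. Pcf11 was also counted by RNA-seq in 3T3-L1 preadipocytes, with 1 library labelled siPcf11 and 1 untreated. The strain given for every library, whatever the cell line, is C57BL/6, a label that was not checked and may be wrong. No control siRNA is named, so that transfection and loss of Pcf11 cannot be told apart, and whether the Pcf11-IPAKO cells are a single clone is not stated in the labels used here. Libraries of a group are not said to come from separate cultures, so the p-values measure the spread between libraries, which may be technical. In bulk RNA, fewer cells of a kind and less RNA per cell cannot be told apart. The poly(A) tables hold no gene names, so the cell types were not checked against markers there.

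Most Pcf11 reads ended in the last exon. The last-exon class held 20 positions and 3380 reads (89.4%), the early class 19 positions and 368 reads (9.74%), and the stretch between them 4 positions and 32 reads (0.847%). Of the 43 positions, 35 had fewer than 10 reads over all libraries and 20 had a single read. Between the classes, 24 of the 32 reads lay at 99807127, spread over 9 libraries with at most 7 reads each.

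Joining positions within 24 nt left 39 clusters, and 6 of these held at least 5% of the Pcf11 reads of some group. In the last exon these were the main end at 99792222 (2860 reads, present in all 20 libraries), a distal end 254 nt further downstream at 99791968 (314 reads, all 20 libraries), and a proximal end 545 nt upstream of the main end at 99792767 (161 reads, 17 libraries). Near the promoter lay a pair of intronic ends 43 nt apart, at 99816694 (199 reads) and 99816737 (114 reads), 24.5 kb upstream of the main end and each present in 18 of the 20 libraries. The last of the 6 was a mid-gene end at 99808312 with 25 reads, which falls just inside the early class, 16.1 kb upstream of the main end. Just outside that class lay 99807127.

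**Figure D1:**
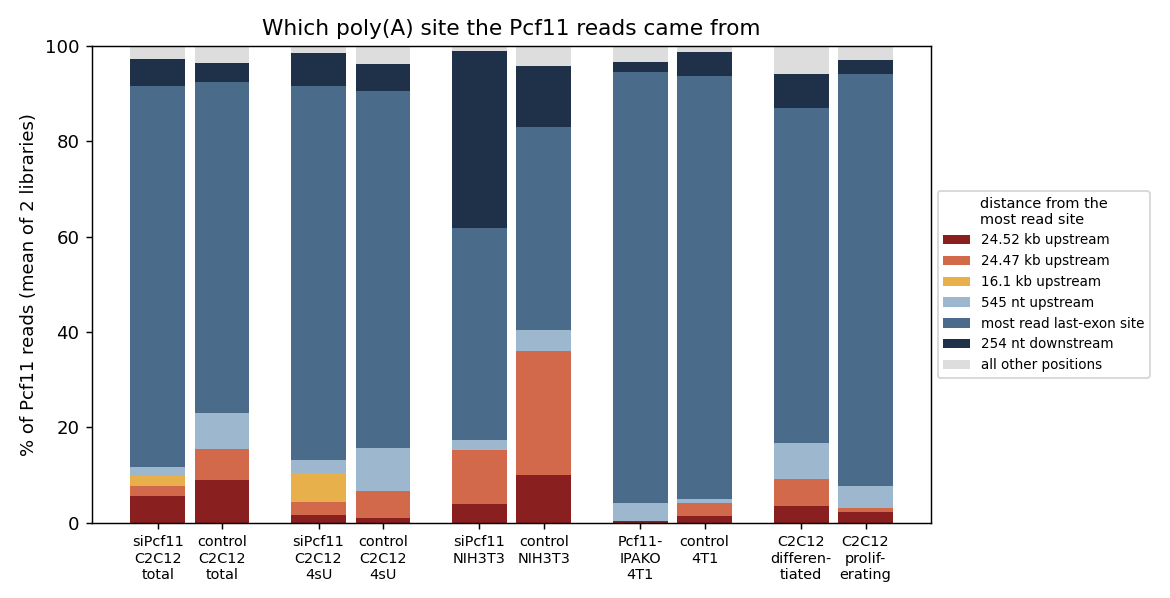
Share of the Pcf11 reads that ended at each of the 6 clusters, as the mean of the 2 libraries of a group (vertical axis, percent), with colours ordered from the promoter side to the 3′ side by distance from the main end. The main end (mid-blue) leads in all groups; the intronic pair (dark and light red) is largest in NIH3T3 controls, the mid-gene end (yellow) is seen in the siPcf11 C2C12 groups, and the distal end (dark blue) is largest in NIH3T3 cells labelled siPcf11.

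Mean Pcf11 levels were not lower in any group labelled siPcf11 than in its control. This is the check of the target's RNA in each of these comparisons. No loss of it was seen, which is why the text speaks of libraries labelled siPcf11. Pcf11 protein was not measured here, and counts of RNA ends do not give its level. Levels are given in CPM, which are counts scaled to the total of the library. In C2C12 total RNA, all Pcf11 ends together made 48.7 and 53.8 CPM in libraries labelled siPcf11, against 54.7 and 35.5 CPM in controls. The groups overlapped, as the control libraries lay farther apart than the group means. The log2 fold change was 0.36 (SE 0.19, edgeR adjusted p = 0.0949), in a comparison in which 51.5% of all site groups tested changed. The last-exon class taken alone gave 0.475 with an adjusted p of 0.0323 by the same edgeR test.

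In 4sU RNA of C2C12 cells, Pcf11 made 81.5 and 78.7 CPM in libraries labelled siPcf11, against 65.1 and 65.9 CPM in controls. Both siPcf11 libraries lay above both controls, and the level rose by 0.60 on the log2 scale (SE 0.17, edgeR adjusted p = 0.0013). In this comparison 53.6% of all site groups tested changed, with 28.4% of those tested higher and 25.1% lower. Scaling to library totals alone moved the median change of all site groups to -0.27, against 0.04 with TMM scaling, and the Pcf11 change to 0.29 with an edgeR adjusted p of 0.133. Relative to that median, Pcf11 was 0.56 higher on the log2 scale under either scaling.

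The responses in 4sU and total RNA differed by 0.23 (SE 0.25, edgeR adjusted p = 0.786, 0.838% of site groups called).

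The main end at 99792222 passed the test in both kinds of RNA. In total RNA it had 71 and 109 reads (37.6 and 44.4 CPM) in libraries labelled siPcf11, against 75 and 69 reads (33.1 and 27.9 CPM) in controls, and rose by 0.61 on the log2 scale (SE 0.21, edgeR adjusted p = 0.0122, 47.3% of single ends called). In 4sU RNA it had 139 and 130 reads (63.6 and 62.0 CPM) in libraries labelled siPcf11, against 129 and 127 reads (50.3 and 47.8 CPM) in controls, and rose by 0.65 (SE 0.19, edgeR adjusted p = 0.00203, again 47.3% called). The groups did not overlap in either kind of RNA. The call in total RNA was lost without control replicate 2 (0.49, edgeR adjusted p = 0.14) and without siPcf11 replicate 2 (0.58, edgeR adjusted p = 0.0783), and that in 4sU RNA without siPcf11 replicate 1 (0.54, edgeR adjusted p = 0.0662). With no low-count filter, which put 224398 ends in the test, neither was called (edgeR adjusted p = 0.107 in total RNA, with 2.5% of ends called, and 0.171 in 4sU RNA, with 2.49% called). The proximal end at 99792767 had 6 and 3 reads in 4sU libraries labelled siPcf11, against 12 and 19 in controls (log2 fold change -1.19, SE 0.65, edgeR adjusted p = 0.123), and 0 and 5 against 12 and 5 in total RNA (log2 fold change -1.46, SE 0.80, edgeR adjusted p = 0.126). It passed the test in neither with all libraries. In total RNA, without siPcf11 replicate 2, the siPcf11 group was left with 0 reads at this end and it was called (edgeR adjusted p = 0.0224). Without siPcf11 replicate 1 the change was -0.57 on the log2 scale (edgeR adjusted p = 0.62), and without a control replicate the edgeR adjusted p was 0.0591 to 0.684.

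In NIH3T3 cells, Pcf11 made 48.0 and 64.8 CPM in libraries labelled siPcf11, against 40.4 and 42.3 CPM in controls. The siPcf11 libraries lay above the controls but were far from each other, and the log2 fold change of 0.46 (SE 0.26) did not pass (edgeR adjusted p = 0.424). No site group passed in this comparison (0 of 13576, 0.0%) by edgeR, with 2269 at an unadjusted p under 0.05 and 339 called by DESeq2. The siPcf11 libraries of NIH3T3 differed from each other more than those of any other group (chi-square per degree of freedom 12.9 over all positions, against 1.85 to 10.3 elsewhere). Without siPcf11 replicate 1, which leaves 1 library under that label, the Pcf11 change was 0.62 on the log2 scale. The difference in Pcf11 response between NIH3T3 and C2C12 total RNA was 0.01 (95% interval -0.79 to 0.82, edgeR adjusted p = 1, 3.66% of site groups called).

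**Figure D2:**
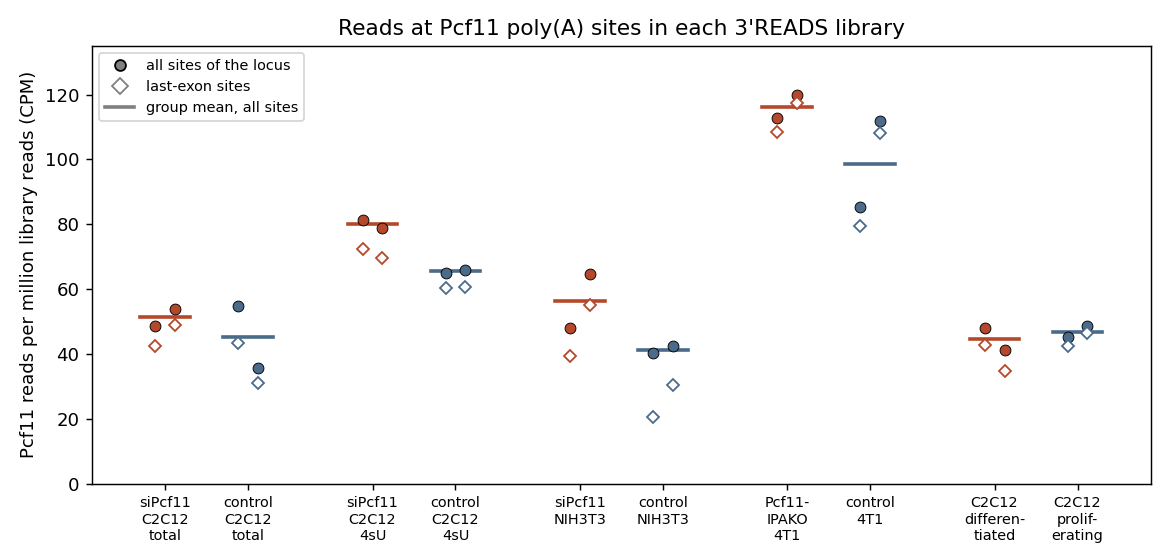
Pcf11 level scaled to the library total (vertical axis, CPM) in each 3′READS library, for all ends of the locus (circles, with the group mean as a line) and for last-exon ends alone (diamonds); each pair of groups has the siPcf11, Pcf11-IPAKO or differentiated group in red and its control in blue. The siPcf11 libraries lie between 48.0 and 81.5 CPM and none of these groups has a mean under that of its control.

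The RNA-seq count of Pcf11 in 3T3-L1 cells, from 1 library a group and so without a test, was not lower either once scaled. Pcf11 had 840 counts of 6992460 in the library labelled siPcf11 and 939 of 8573956 in the control, or 120 and 110 CPM. The log2 ratio was 0.17 after TMM scaling (95% counting interval 0.03 to 0.30) and 0.13 (-0.0026 to 0.27) with library totals. Of 9143 genes with at least 100 counts in both libraries together, 24.9% had a ratio at or above that of Pcf11. Both libraries held counts of all 6 preadipocyte and fibroblast markers, with Col1a2 at 102818 counts in the siPcf11 library and 117146 in the control, whereas the adipocyte genes Adipoq, Plin1, Cidec and Lep were not listed in either, which means fewer than 5 counts. The adipocyte marker Fabp4 had 552 counts in the siPcf11 library and 845 in the control. Of the muscle markers, Acta1 had 328 counts in the siPcf11 library and 334 in the control, and Des 15 and 19. The immune marker Cd68 had 40 and 55, and the epithelial marker Krt8 had 11 in the control only. Myod1, Myog, Epcam, Krt18, Cdh1 and Ptprc were listed in neither library.

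The genes of a list for cleavage, polyadenylation and termination were all found in 3T3-L1, where they lay on both sides of 0. Snrnp70, Snrpa and Snrpc on this list belong to the splicing machinery. Of 29 genes, 16 had a log2 ratio above 0 and 13 below, with a median of 0.06 against 0.0016 over all 9143 genes. Of the 29, 1 reached a 1.5-fold difference, while 5.62% of all genes did. That gene was Ssu72, a phosphatase of the RNA polymerase II tail, with 378 counts in the siPcf11 library and 276 in the control (log2 ratio 0.78, 0.55 to 1.01). Nudt21, the small subunit of cleavage factor I, followed with 114 and 113 counts (0.34, -0.05 to 0.73).

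At the other end stood Cpsf4 (96 counts in the siPcf11 library and 166 in the control; log2 ratio -0.46, -0.84 to -0.09) and Cpsf1 (470 and 758 counts; -0.36, -0.53 to -0.20), both subunits of the complex that recognises the poly(A) signal. The counting interval lay above 0 for 8 genes: Ssu72, Rprd1b, Sympk, Cpsf3, Rbbp6, Papola, Cpsf2 and Scaf8. It lay below 0 for 7: Snrnp70, Pabpn1, Cstf2t, Cpsf6, Cstf3, Cpsf1 and Cpsf4. Over all 9143 genes the interval lay above 0 for 19.5% and below 0 for 19.7%. Clp1, the partner of Pcf11 in cleavage factor II, had 247 counts in the siPcf11 library and 274 in the control (0.18, -0.08 to 0.43). These intervals cover counting error only, and PCR copies are not independent molecules.

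The share of early ends ranged widely between groups, with its highest values in NIH3T3 controls. Shares are early reads out of early plus last-exon reads, with exact (Clopper-Pearson) 95% intervals that also cover counting error only. In NIH3T3 cells labelled siPcf11, 24 of 134 reads (17.9%, 11.8 to 25.5) and 37 of 248 reads (14.9%, 10.7 to 20.0) were early. In NIH3T3 controls, 57 of 122 reads (46.7%, 37.6 to 56.0) and 40 of 141 reads (28.4%, 21.1 to 36.6) were early. Both siPcf11 libraries lay below both controls, which in groups of 2 gives the smallest exact two-sided permutation p possible, 0.333.

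The ratio of early to last-exon reads differed by a log2 fold change of -1.61 in NIH3T3 (SE 0.60). It did not pass over all 2909 site groups (unadjusted p = 0.0183, edgeR adjusted p = 0.185, 0.963% called). The log2 fold change was -1.75 without siPcf11 replicate 1, and with each library left out in turn it ranged from -2.18 to -1.03. Reads at the intronic pair numbered 21 and 37 (7.52 and 9.67 CPM) in libraries labelled siPcf11, against 57 and 38 (18.1 and 11.4 CPM) in controls.

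The distal last-exon end at 99791968 had its largest share of Pcf11 reads in the same cells. It had 58 and 76 reads (20.8 and 19.9 CPM) in NIH3T3 libraries labelled siPcf11, against 11 and 24 reads (3.50 and 7.20 CPM) in controls. Its share of Pcf11 reads was 37.0% ± 8.94 in siPcf11 libraries and 12.8% ± 5.91 in controls (SD, n = 2 each), while in the other 8 groups the mean share was 2.14% to 7.04%. The log2 fold change was 1.95 (SE 0.45, unadjusted p = 0.00344, edgeR adjusted p = 0.165). No single end of 18846 passed in NIH3T3 by edgeR (0.0%), and 3078 had an unadjusted p under 0.05. Without siPcf11 replicate 1 the change at this end was 1.85, and without siPcf11 replicate 2 it was 1.99. Without control replicate 1 it was 1.54, and without control replicate 2 it was 2.50. The main end had 52 and 125 reads in siPcf11 libraries, against 49 and 66 in controls (log2 fold change 0.57, SE 0.38, edgeR adjusted p = 0.513).

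In C2C12 total RNA the early share was 13.0% (6.93 to 21.7) and 9.09% (4.79 to 15.3) in libraries labelled siPcf11, against 20.3% (13.6 to 28.5) and 11.5% (5.65 to 20.1) in controls. The groups overlapped (exact permutation p = 0.667, n = 2 each), and the log2 fold change of the ratio was -0.73 (SE 0.49, edgeR adjusted p = 0.267; -0.11 without control replicate 1 and -1.07 without control replicate 2), where 32.7% of site groups were called, 24.7% of all toward less use of the most 5′ end. In 4sU RNA the share was 11.2% (7.0 to 16.8) and 11.5% (7.08 to 17.4) in libraries labelled siPcf11, against 7.19% (3.77 to 12.2) and 7.47% (4.04 to 12.4) in controls. Here the siPcf11 libraries lay higher, but the log2 fold change of 0.69 (SE 0.46) did not pass either (edgeR adjusted p = 0.28, 28.5% called). The difference between both responses, 1.42 (SE 0.67), was not called (edgeR adjusted p = 0.509, 0.066% called).

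The direction in 4sU RNA rested on the mid-gene end at 99808312. This end had 13 and 8 reads in 4sU libraries labelled siPcf11 and 3 and 1 reads in total RNA libraries labelled siPcf11. It had 0 reads in the other 16 libraries, those of NIH3T3 cells labelled siPcf11 included. It was named because it held at least 5% of the Pcf11 reads of the 4sU group labelled siPcf11, so its difference from the controls in that group is a description without a test. It had too few reads for the low-count filter. In 4sU libraries labelled siPcf11 this end takes 21 of 39 reads of the early class. The summed level of that class rose by 1.22 on the log2 scale in 4sU RNA (SE 0.45, edgeR adjusted p = 0.0156, 53.6% of site groups called). This level was added after seeing the data. It draws on the end named for its reads in this group, so its call is no separate support. That call was lost with library totals (0.92, edgeR adjusted p = 0.0754) and without any one of the 4 libraries (1.16 to 1.25, edgeR adjusted p = 0.0609 to 0.0832).

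With that end set aside, the intronic pair had 6 and 9 reads in 4sU libraries labelled siPcf11, against 11 and 12 in controls. In total RNA it had 8 and 9 reads in libraries labelled siPcf11, against 24 and 10 in controls. The log2 fold change of the pair's level was -0.02 in 4sU RNA (SE 0.58, edgeR adjusted p = 0.976) and -0.71 in total RNA (SE 0.52, edgeR adjusted p = 0.261). As a share of Pcf11 reads, the pair made 3.37% and 5.45% in 4sU libraries labelled siPcf11, against 6.59% and 6.86% in controls. In total RNA it made 8.70% and 6.82% in libraries labelled siPcf11, against 19.4% and 11.4% in controls. The pair's share was thus lower in both siPcf11 libraries than in both controls in either kind of RNA, at the smallest exact permutation p possible (0.333, n = 2 each). In NIH3T3 it was also lower, at 15.7% and 14.9% in libraries labelled siPcf11, against 44.9% and 27.0% in controls (exact permutation p = 0.333). As a ratio to last-exon reads, an alternative added after seeing the data, the pair passed in none of these comparisons. The log2 fold change was -0.56 in 4sU RNA (edgeR adjusted p = 0.509), -1.18 in total RNA (edgeR adjusted p = 0.0802) and -1.67 in NIH3T3 (edgeR adjusted p = 0.182).

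**Figure D3:**
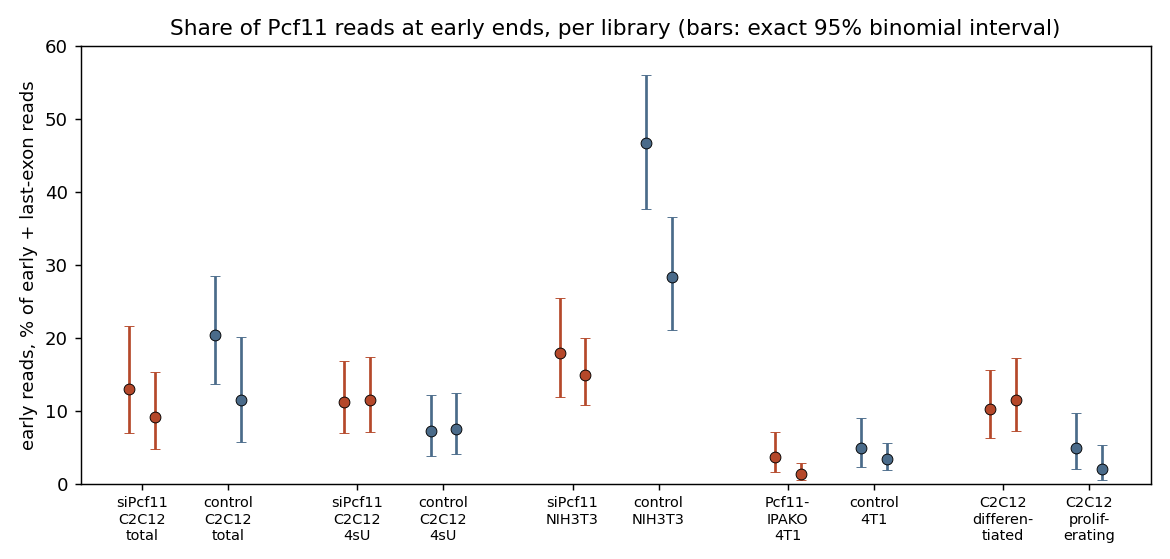
Early reads as a percent of early plus last-exon Pcf11 reads in each library (points), with exact 95% binomial intervals as bars. NIH3T3 controls reach 28.4% and 46.7%, 4T1 libraries stay under 5%, and differentiated C2C12 libraries (10.3% and 11.5%) lie above proliferating ones (4.83% and 2.08%).

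In 4T1 cells of the genotype Pcf11-IPAKO, reads at the intronic pair were fewer. The end at 99816694 had 0 and 0 reads in Pcf11-IPAKO libraries, against 7 and 6 in controls. With 3 counts over both Pcf11-IPAKO libraries taken as the limit, the difference was at least 4.25-fold. This treats the 13 control reads as exact and leaves out the spread between libraries. The limit allows a share of up to 0.437% of the 687 Pcf11 reads of the Pcf11-IPAKO libraries. The end at 99816737 had 0 and 4 reads in Pcf11-IPAKO libraries, against 2 and 8 in controls. Together the pair had 4 reads of 5849482 in Pcf11-IPAKO libraries and 23 of 5967372 in controls, a ratio of 0.177 (exact 95% counting interval 0.0446 to 0.519). The groups did not overlap in CPM (0 and 1.02 in Pcf11-IPAKO libraries, against 4.06 and 3.73 in controls).

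Tested over all site groups, the pair's log2 fold change in Pcf11-IPAKO cells was -2.47 (SE 0.93, unadjusted p = 0.0232, edgeR adjusted p = 0.217). In the comparison of levels, 4.14% of site groups were called. The early class as a whole overlapped between the groups, with 8 of 217 reads (3.69%, 1.60 to 7.13) and 6 of 467 reads (1.28%, 0.473 to 2.78) in Pcf11-IPAKO libraries, against 9 of 185 (4.86%, 2.25 to 9.03) and 14 of 420 (3.33%, 1.83 to 5.53) in controls. Pcf11-IPAKO libraries had 8 and 2 early reads at positions outside the pair, with at most 2 reads at any of them, while the controls had 0 and 0. The ratio of early to last-exon reads changed by -0.83 (SE 0.67, edgeR adjusted p = 0.848, 1.24% called), and the pair alone against the last exon by -2.81 (edgeR adjusted p = 0.177).

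The level of Pcf11 in 4T1 cells was 113 and 120 CPM in Pcf11-IPAKO libraries, against 85.3 and 112 CPM in controls. Both Pcf11-IPAKO libraries lay above both controls, though the higher control came within 1 CPM of the lower Pcf11-IPAKO library. The log2 fold change of 0.31 (SE 0.28, 95% interval -0.30 to 0.93) did not pass (edgeR adjusted p = 0.687). Within the last exon, the proximal end at 99792767 had 8 and 18 reads in Pcf11-IPAKO libraries, against 0 and 8 in controls, and the distal end at 99791968 had 7 and 5, against 8 and 25. Neither passed (log2 fold change 1.88, SE 0.96, edgeR adjusted p = 0.456 for the proximal end, and -1.11, SE 0.77, edgeR adjusted p = 0.627 for the distal end, with 2.49% of single ends called). Libraries of both 4T1 groups differed more between replicates than most others (chi-square per degree of freedom 8.84 in Pcf11-IPAKO cells and 10.3 in controls).

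The ratio of early to last-exon Pcf11 reads rose with differentiation of C2C12 cells. The early share was 10.3% (6.30 to 15.6) and 11.5% (7.16 to 17.2) in differentiated libraries, against 4.83% (1.96 to 9.69) and 2.08% (0.571 to 5.25) in proliferating ones. Both differentiated libraries lay above both proliferating ones, and the ratio rose by 1.82 on the log2 scale (SE 0.51, edgeR adjusted p = 0.0108). Of all 3523 site groups tested, 19.2% were called and 5.85% moved toward the most 5′ end. The call was lost without differentiated replicate 2 (1.72, edgeR adjusted p = 0.0849) and without proliferating replicate 2 (1.25, edgeR adjusted p = 0.202).

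The intronic pair made most of this difference, with 16 and 18 reads (4.13 and 4.06 CPM) in differentiated libraries, against 7 and 3 reads (2.15 and 0.74 CPM) in proliferating ones. Its level rose by 1.69 on the log2 scale (SE 0.50, edgeR adjusted p = 0.00291, 62.4% of site groups called). Without proliferating replicate 2 it was 1.03 (edgeR adjusted p = 0.177). At 99816694 alone there were 10 and 11 reads in differentiated libraries, against 1 and 2 in proliferating ones, and at 99816737 there were 6 and 7, against 6 and 1. The level of all Pcf11 ends was 48.1 and 41.3 CPM in differentiated libraries, against 45.1 and 48.6 CPM in proliferating ones (log2 fold change 0.06, SE 0.16, 95% interval -0.25 to 0.37, edgeR adjusted p = 0.758).

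In the last exon, the distal end at 99791968 had 14 and 12 reads (3.62 and 2.71 CPM) in differentiated libraries, against 4 and 6 (1.23 and 1.48 CPM) in proliferating ones. It rose by 1.31 on the log2 scale (SE 0.51, edgeR adjusted p = 0.0279, 55.8% of single ends called), and this call was lost without any one of the 4 libraries (1.13 to 1.55, edgeR adjusted p = 0.122 to 0.326). The main end had 131 and 128 reads in differentiated libraries, against 125 and 173 in proliferating ones (log2 fold change -0.24, SE 0.17, edgeR adjusted p = 0.237). The early share in untreated C2C12 cells was not the same in the separate set of libraries of the siRNA experiment, where total RNA controls had 20.3% and 11.5% early reads. These lie at or above the differentiated libraries, and the difference between both sets of untreated cells was not tested.

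Newly made RNA held more Pcf11 reads than total RNA in C2C12 cells. In libraries labelled siPcf11, the level was 81.5 and 78.7 CPM in 4sU RNA, against 48.7 and 53.8 CPM in total RNA (log2 fold change 0.70, SE 0.18, edgeR adjusted p = 0.00135, 18.4% of site groups called). In untreated cells it was 65.1 and 65.9 CPM in 4sU RNA, against 54.7 and 35.5 CPM in total RNA (log2 fold change 0.47, SE 0.18, edgeR adjusted p = 0.0362, 27.8% called). The first call was lost without the siPcf11 total RNA replicate 1 (0.56, edgeR adjusted p = 0.0568). The second was lost without any of the 4 compared libraries but total RNA replicate 1, down to 0.17 (edgeR adjusted p = 0.631) without total RNA replicate 2, and with DESeq2 (0.50, adjusted p = 0.133). The main end passed in both, by 0.66 (SE 0.20, edgeR adjusted p = 0.00922, 14.3% of single ends called) in libraries labelled siPcf11 and by 0.62 (SE 0.20, edgeR adjusted p = 0.0156, 21.6% called) in controls. In controls it was no longer called without 4sU replicate 1 or 2 or total RNA replicate 2 (0.50 to 0.67, edgeR adjusted p = 0.0717 to 0.197). In libraries labelled siPcf11 it was no longer called without 4sU replicate 1 or 2 or total RNA replicate 1 (0.51 to 0.68, edgeR adjusted p = 0.0672 to 0.176). With no low-count filter neither was called (edgeR adjusted p = 0.077 in controls and 0.295 under the siPcf11 label).

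Both 4sU libraries of untreated cells had a lower early share than both total RNA libraries, with 7.19% and 7.47% in 4sU RNA, against 20.3% and 11.5% in total RNA. The log2 fold change of the ratio, -1.34 (SE 0.48), stood just outside the threshold (edgeR adjusted p = 0.0556, 10.2% called). The change in untreated cells was -0.72 without total RNA replicate 1 and -1.68 without total RNA replicate 2. In libraries labelled siPcf11 the log2 fold change of the ratio was 0.08 (SE 0.46, edgeR adjusted p = 0.941, 6.9% called). The members of the intronic pair had different counts in untreated cells, though the difference between them was not tested. The upstream end at 99816737 had 2 and 1 reads in 4sU RNA, against 14 and 6 in total RNA, a ratio of 0.136 (exact 95% counting interval 0.0259 to 0.459). The end at 99816694, 43 nt downstream, had 9 and 11 reads in 4sU RNA, against 10 and 4 in total RNA (ratio 1.30, 0.623 to 2.78). Both had too few reads for the low-count filter there, and with no filter neither was called (log2 fold change -2.78, edgeR adjusted p = 0.171 for 99816737, and 0.35, edgeR adjusted p = 1 for 99816694).

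**Figure D4:**
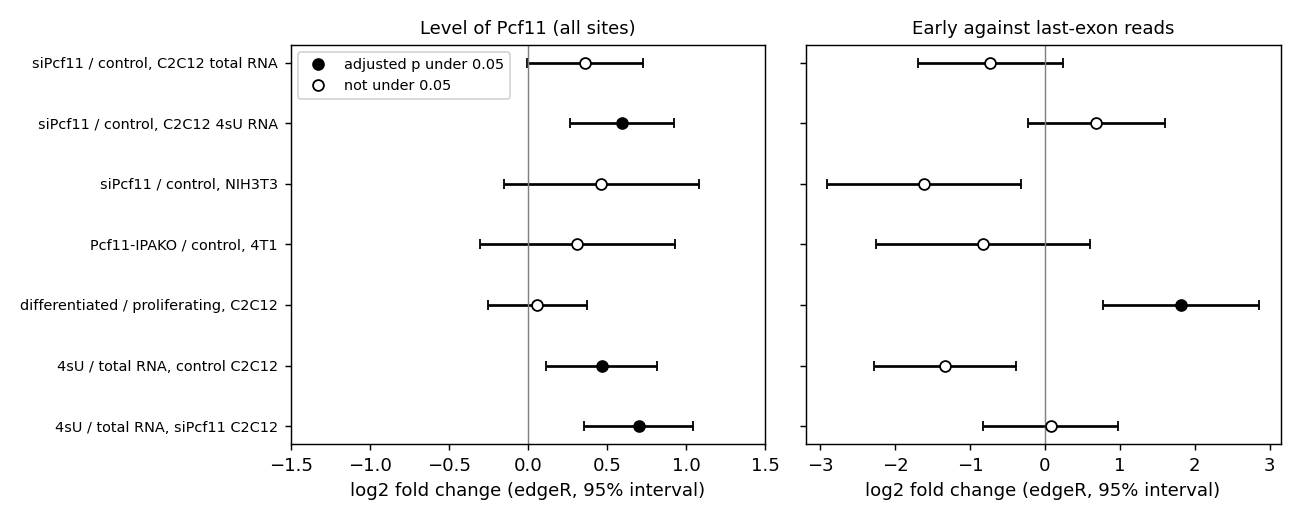
Log2 fold changes from edgeR (horizontal axes, with 95% intervals as bars) of the level of all Pcf11 ends (left) and of early against last-exon reads (right), with filled points where the adjusted p is under 0.05. The level passed in siPcf11 against control 4sU RNA (0.60) and in both comparisons of 4sU with total RNA, while the early ratio passed in differentiation (1.82).

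Ordered by mean level, Pcf11 was highest in 4T1 cells, at 116 ± 5.02 CPM in Pcf11-IPAKO libraries and 98.6 ± 18.8 CPM in controls (SD, n = 2 for each group here). C2C12 4sU RNA came next, at 80.1 ± 1.93 CPM under the siPcf11 label and 65.5 ± 0.576 CPM in controls. The other groups lay between 56.4 ± 11.9 CPM in NIH3T3 cells labelled siPcf11 and 41.4 ± 1.36 CPM in NIH3T3 controls. Among these lower 6 groups, the neighbours in that order overlapped, except that C2C12 total RNA labelled siPcf11 (51.3 ± 3.55 CPM) lay just above proliferating C2C12 cells (46.8 ± 2.46 CPM).

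The order by early share was different. NIH3T3 controls led at 37.5% ± 13.0, followed by NIH3T3 cells labelled siPcf11 at 16.4% ± 2.12 and C2C12 total RNA controls at 15.9% ± 6.24. C2C12 4sU RNA labelled siPcf11 (11.4% ± 0.197), C2C12 total RNA labelled siPcf11 (11.1% ± 2.79) and differentiated C2C12 cells (10.9% ± 0.865) overlapped with the neighbour above them. Untreated C2C12 4sU RNA had 7.33% ± 0.202. At the bottom, 4T1 controls (4.10% ± 1.08), proliferating C2C12 cells (3.46% ± 1.94) and Pcf11-IPAKO 4T1 cells (2.49% ± 1.70) overlapped in turn. The cell lines with the most Pcf11 reads were thus not those with the largest early share, a description of 3 lines processed as separate experiments.

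Of 8613 other site groups with a mean of at least 10 CPM, the 5 whose levels followed those of Pcf11 most closely over the 10 groups had Pearson's r of 0.928 to 0.942 on the log2 scale. They lay on the minus strand of chromosome 10 at 93045490 to 93046138, at 80315569 and at 30254033 to 30254521, and on the minus strand of chromosome 6 at 97059918 to 97061554 and at 128749465 to 128749467. The site group at 128749465 to 128749467 ranged from 0 to 114 CPM, so its r includes a value at 0. The 10 points share cell lines and experiments, and no gene name was given to these positions.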

How the data were processed

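The deposited 3′READS files list poly(A) positions with raw read counts, which the authors left unnormalized, and the deposited RNA-seq files list gene symbols with raw read counts, none under 5. Per the submitters' processing notes, cutadapt, Bowtie2 and STAR were used with mm9, with no version or role named. The locus, site classes and gene list were chosen with earlier results of these data known. Libraries held 1887532 to 4432717 reads (3′READS). Sites with at least 1 CPM in at least 2 libraries were chained over gaps of up to 5 kb into site groups, with the Pcf11 window as 1 group. Levels were tested with edgeR 4.0.16 (quasi-likelihood, TMM, low-count minimum 10, Benjamini-Hochberg over all features). The ratio of early to last-exon reads was tested with edgeR's diffSpliceDGE, where other site groups set their most 5′ used site (at least 5% of reads) against their other used sites. The 8 C2C12 siRNA libraries shared a fit, and other comparisons had a fit each. Named single sites are clusters with at least 5% of Pcf11 reads in a group. The RNA-seq genes named follow a list of 29 genes, mostly of cleavage, polyadenylation and termination, with those whose interval leaves out 0 and the extremes named. Levels of the early class and the intronic pair, and the single-site fit without a filter, were added after seeing the data. DESeq2 1.42.0 was an alternative. The scripts were tested on simulated data. The adjusted p threshold was 0.05. Replicate libraries differed by more than sampling noise in every group.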

Additional observations from a re-analysis of the deposited data

How the results depend on the processing

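With a setting other than a library left out, 153 of 165 values of the Pcf11 level and of its early ratio kept their direction and their side of the threshold, and 69 of 86 did so with a library left out. Values below are log2 fold changes by edgeR unless DESeq2 is named, and the cause of each was not tested.

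Against the other settings, the early ratio of 4sU over total RNA in controls passed with the compared libraries alone (-1.34) and with a split at the middle of the window (-1.36). With the intronic pair in place of the early class, an alternative added after seeing the data, the early ratio turned to -0.79 for 4sU over total RNA under the siPcf11 label and to -0.56 for siPcf11 over control in 4sU RNA. With the most read end of each class, the difference in early ratio between NIH3T3 and C2C12 turned to 0.52, and in the other comparisons but NIH3T3 this setting left too few reads for the filter and gave no value. The level of 4sU over total RNA in controls lost its call with DESeq2 (0.50) and with no filter (0.43), and siPcf11 over control in 4sU RNA lost it with library totals (0.29). The last-exon class alone passed in C2C12 total RNA (0.48). The level with differentiation, near 0, turned to -0.066 with the last-exon class alone and to -0.075 with library totals, and the difference between NIH3T3 and C2C12 to -0.014 with no filter.

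With each library left out in turn, the lone library of a group is assumed to vary like the others. The level ranged from 0.071 to 0.70 in C2C12 total RNA, 0.25 to 0.62 in NIH3T3, -0.051 to 0.18 with differentiation, 0.17 to 0.79 for 4sU over total RNA in controls and 0.56 to 0.70 under the siPcf11 label. It ranged from -0.10 to 0.53 for the difference between 4sU and total RNA and from -0.34 to 0.28 for that between NIH3T3 and C2C12. The early ratio ranged from -1.07 to -0.11 in C2C12 total RNA, -1.65 to -0.56 in 4T1 (replicate 1 of either group left out; without replicate 2 of either, too few reads were left for the filter), -2.18 to -1.03 in NIH3T3, 1.25 to 2.48 with differentiation, -1.68 to -0.72 for 4sU over total RNA in controls and -0.23 to 0.35 under the siPcf11 label. The level of the early class ranged from -1.28 to 0.16 for 4sU over total RNA in controls and from -0.83 to 0.62 for siPcf11 over control in total RNA. That of the intronic pair ranged from -1.34 to 0.038 and -0.52 to 0.11 for 4sU over total RNA in controls and under the siPcf11 label, from -0.42 to 0.21 for siPcf11 over control in 4sU RNA and from -1.26 to 0.12 in total RNA.

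Replicate numbers are shared between groups without a stated pairing. Same-numbered libraries correlated in their deviations by 0.53 in 4T1 cells and by -0.02 to 0.13 in the other comparisons. With the replicate number as a block, no call of level or early ratio changed (C2C12 4sU level 0.59, differentiation early ratio 1.82). Depth limits the early ends most: 3 to 57 reads at the intronic pair in each library other than the Pcf11-IPAKO ones, so that shares carry wide intervals and the pair's members mostly fell under the filter.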
